A study of Mus musculus with 4 samples.

Results

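The 46 genes described here carry the symbols of nuclear subunits of respiratory complex III, complex IV and ATP synthase, together with cytochrome c, and 1 of them is a pseudogene. They were taken from 21552 counted genes by symbol: every gene whose symbol starts with Uqcr, Cox4, Cox5, Cox6, Cox7, Cox8 or Atp5, plus Cyc1 and Cycs. Of these, 9 belong to complex III (Cyc1 included), 1 is cytochrome c, 18 belong to complex IV and 18 carry an ATP synthase symbol. The tissue was heart muscle away from the infarct in 2 C57BL/6 mice whose left anterior descending coronary artery had been tied off for good, taken at day 7, and the labelled remote area of hearts from 2 uninjured C57BL/6 mice. The labels name no transgene, allele or drug in either group. The labels do not say whether the uninjured mice had a sham operation, and they give no age or sex. Polyadenylated RNA of each heart was sequenced, and the question was which transcripts differ in remote myocardium after infarction.

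Complex III takes electrons from ubiquinol and hands them to cytochrome c, a small soluble carrier, and complex IV passes them on to oxygen, both complexes pumping protons across the inner mitochondrial membrane. ATP synthase lets the protons flow back through its membrane ring and uses the rotation to make ATP, the main supply of energy for the beating heart. Some core subunits of these complexes are encoded in mitochondrial DNA, for complex III only cytochrome b, and all others in the nucleus. Some nuclear complex IV subunits exist as a form typical of heart and skeletal muscle and a form found in most tissues.

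The infarcted libraries held 46232326 (replicate 1) and 35715115 (replicate 2) counts, against 53944859 (replicate 1) and 70885393 (replicate 2) in the uninjured ones. The 46 genes held 1.45% and 1.55% of all counts in the infarcted libraries, against 1.90% and 2.83% in the uninjured ones. Uninjured replicate 2 stood apart: it was above uninjured replicate 1 for 44 of the 44 genes that could be tested, by a median of 0.63 on the log2 scale, while the same median over all genes tested was 0.0504. Both infarcted libraries differed from each other by a median of 0.046 over these genes. Infarcted replicate 2 carried atrial transcripts, with a summed level of 5 atrial markers of 555.2 CPM, against 1.42 CPM in infarcted replicate 1 and 1.90 and 2.87 CPM in the uninjured libraries. CPM are counts relative to the library size after trimmed-mean (TMM) scaling.

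Nearly all tested genes of the 3 complexes had lower transcript levels in remote myocardium of the infarcted hearts. Of the 44 genes tested, 39 were called lower, 0 were called higher and 5 were not called by edgeR's quasi-likelihood test at a Benjamini-Hochberg adjusted p below 0.05. Over all 13905 genes tested, 14.6% were called lower and 18.3% were called higher. The fitted log2 fold change, infarcted over uninjured, was below 0 for all 44 tested genes, with a median of -1.09, which is a level 2.13-fold lower, beside a median of 0.02 over all genes. Values ranged from -1.95 for Cox7a1 to -0.28 for Cox6a1. Both infarcted libraries lay below both uninjured libraries for 43 of the 44, the exception being Cox6a1, and for 33.8% of all genes. Cox8c and the pseudogene Atp5l-ps1 had 0 counts in all 4 libraries and were not tested. In tissue RNA, fewer cardiomyocytes and less RNA of these genes per cardiomyocyte cannot be told apart.

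The 3 complexes and cytochrome c moved by similar amounts. In complex III, 9 of 9 tested genes were called lower, with a median of -1.07. Cycs was called lower at -0.96. In complex IV, 12 of 17 were called lower, with a median of -1.12. In ATP synthase, 17 of 17 were called lower, with a median of -1.09. The spread among genes was widest in complex IV, with an SD of the log2 fold change of 0.415 over 17 genes, against 0.203 over 9 complex III genes and 0.165 over 17 ATP synthase genes, beside a median SE of 0.248 for 1 gene. The share of summed CPM held by each complex stayed close: ATP synthase genes took 57.3% and 58.9% in the infarcted libraries, against 56.6% and 54.7% in the uninjured ones. Complex IV took 23.0% and 22.1% in the infarcted libraries, against 23.7% and 26.0% in the uninjured ones.

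**Figure D1:**
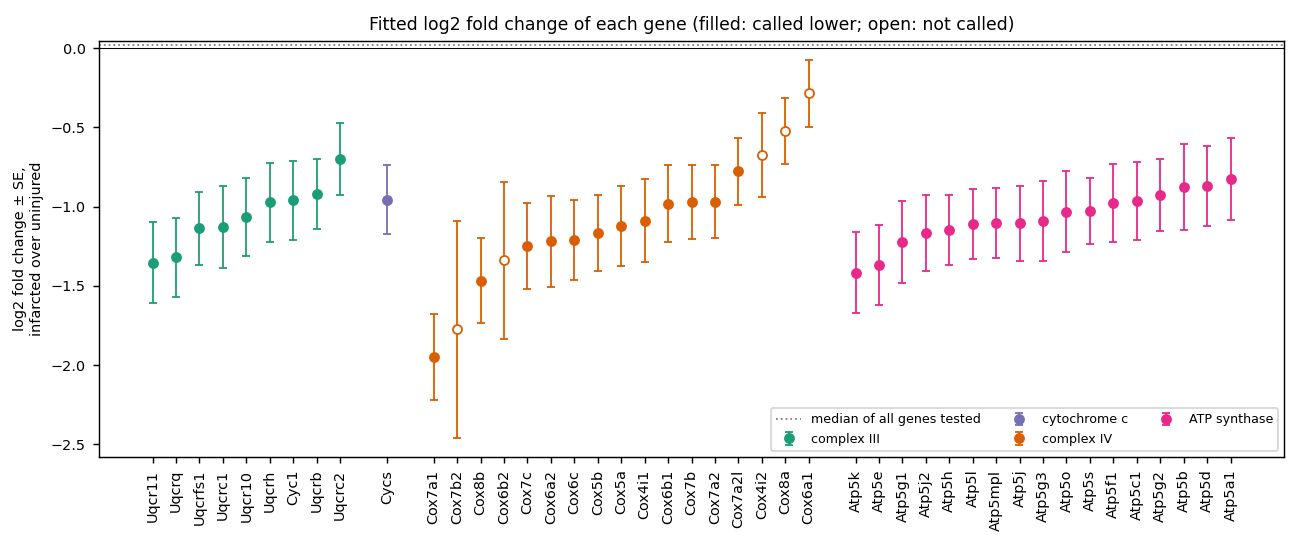
Fitted log2 fold change, infarcted over uninjured, of the 44 tested genes (y axis, bars are 1 SE), grouped by complex on the x axis, with 2 mice in each group; filled points were called lower and open points were not called. All points lie below 0, and complex IV spans the widest range, from Cox7a1 at -1.95 to Cox6a1 at -0.28.

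The size of the difference depended on which uninjured library was used. Infarcted replicate 1 lay below uninjured replicate 1 for 43 of 44 genes, with a median of -0.70, and below uninjured replicate 2 for 44 of 44, with a median of -1.36. Infarcted replicate 2 lay below uninjured replicate 1 for 43 of 44 genes, with a median of -0.74, and below uninjured replicate 2 for 44 of 44, with a median of -1.36. At least 43 of the 44 genes were thus lower in the infarcted heart in each of the 4 pairs of libraries, by less against uninjured replicate 1. Without uninjured replicate 2, edgeR called 0 of the genes (0.056% of all genes called lower), while 39 had an unadjusted p below 0.05 (13.5% of all genes), the median was -0.73, and DESeq2 called 30 (4.52% of all genes) at a median of -0.75. The count was 41 without uninjured replicate 1 (12.7% of all genes), 37 without infarcted replicate 1 (11.5%) and 34 without infarcted replicate 2 (8.83%).

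**Figure D2:**
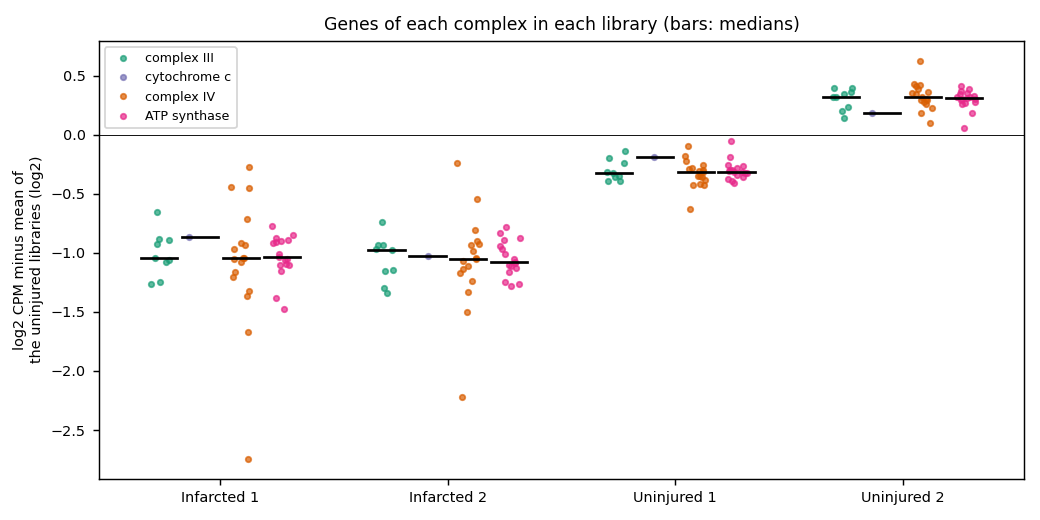
Each point is 1 gene in 1 library, as log2 CPM minus the mean of the 2 uninjured libraries (y axis), coloured by complex; black bars are medians. The median of the 44 genes was -1.04 and -1.05 in infarcted replicates 1 and 2, -0.32 in uninjured replicate 1 and 0.32 in uninjured replicate 2.

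Markers of other cells also differed between the groups. Summed over 9 cardiomyocyte markers, the level was 38370 and 33720 CPM in the infarcted libraries, against 57420 and 72910 CPM in the uninjured ones, and 5 of the 9 were called lower at a median of -0.80. The genes described here summed to 35.0% and 39.1% of that cardiomyocyte total in the infarcted libraries, against 37.3% and 43.8% in the uninjured ones, a ratio added after the data were seen, and the groups overlap. The long cardiomyocyte transcripts Ttn and Ryr2, which encode titin and the calcium release channel, had log2 fold changes of 0.17 and -0.20 and were not called. Summed markers of fibroblasts (8 genes) were 4198 and 3415 CPM in the infarcted libraries, against 692 and 709.4 CPM in the uninjured ones. Of these 8, 5 were called higher, as were 4 of 4 activated fibroblast markers and 5 of 6 macrophage markers. Of 4 smooth muscle markers 1 was called higher, and of 5 endothelial markers 0. Activated fibroblast markers were 1803 and 1091 CPM in the infarcted libraries, against 40.7 and 23.6 CPM in the uninjured ones. Smooth muscle markers were 340.2 and 513.6 CPM in the infarcted libraries, against 250.9 and 321.3 CPM in the uninjured ones. Adipocyte markers (4 genes) were 0.1 and 10.9 CPM in the infarcted libraries, against 0.25 and 1.24 CPM in the uninjured ones. Macrophage markers were 337.9 and 366.7 CPM in the infarcted libraries, against 146.7 and 126.1 CPM in the uninjured ones. Endothelial markers were 922.6 and 739.2 CPM in the infarcted libraries, against 731.7 and 696.1 CPM in the uninjured ones. Muscle forms of complex IV are also made in skeletal muscle and brown fat. Skeletal muscle markers (6 genes) summed to 709.9 and 582.7 CPM in the infarcted libraries, against 228.7 and 105.9 CPM in the uninjured ones, nearly all of it from Acta1, which is also made in stressed heart muscle. Acta1 (1.95) and Tnnt3 (3.77) were called higher, and the defining myosins Myh1, Myh2 and Myh4 reached at most 0.0477 CPM. Brown fat markers (4 genes) summed to 32.9 and 45.1 CPM in the infarcted libraries, against 18.3 and 25.4 CPM in the uninjured ones: Dio2 was called higher (4.04), Cidea was not called (0.01) and the defining gene Ucp1 reached at most 0.0715 CPM. The part of cell content in the lower levels of respiratory genes was not tested.

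Complex III genes were lower throughout. Uqcr11, which encodes the smallest subunit, had 114 and 108 CPM in the infarcted libraries, against 207 and 358 CPM in the uninjured ones, a log2 fold change of -1.35 ± 0.26 (SE, adjusted p = 0.00192). Uqcrq, a small subunit near the ubiquinone site, had 143 and 138 CPM in the infarcted libraries, against 264 and 435 CPM in the uninjured ones (-1.32 ± 0.25, adjusted p = 0.00177). For both genes, both infarcted libraries lay close together and well below both uninjured libraries, of which replicate 2 was the highest. Uqcrfs1, the Rieske iron-sulphur protein that takes the first electron from ubiquinol, had 248 and 236 CPM in the infarcted libraries, against 446 and 619 CPM in the uninjured ones (-1.14 ± 0.23). Uqcrc1, a core protein on the matrix side, had 578 and 541 CPM in the infarcted libraries, against 954 and 1492 CPM in the uninjured ones (-1.13 ± 0.26). In both, the infarcted libraries again lay below both uninjured ones.

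The smallest step in complex III before any correction for transcript length was that of Uqcrc2, the partner core protein of Uqcrc1, with 520 and 491 CPM in the infarcted libraries, against 742 and 902 CPM in the uninjured ones (-0.70 ± 0.23, adjusted p = 0.0295). With the trend on principal transcript length removed it was at -0.71, and Uqcrb (-0.48), Uqcrh (-0.52) and Uqcr10 (-0.54) moved less. Cyc1, the cytochrome that passes electrons to cytochrome c, had 318 and 301 CPM in the infarcted libraries, against 473 and 733 CPM in the uninjured ones (-0.96 ± 0.25, adjusted p = 0.00971). Uqcrh, the hinge protein that helps cytochrome c bind, had 263 and 262 CPM in the infarcted libraries, against 394 and 638 CPM in the uninjured ones (-0.97 ± 0.25, adjusted p = 0.00986). In each of these the groups did not overlap. The remaining genes, Uqcr10 at -1.07 and Uqcrb at -0.92, were called lower too. Per kilobase of principal transcript, mean levels of the 9 genes ran from 92.1 CPM per kb for Uqcrq to 480 CPM per kb for Uqcrh in the infarcted hearts, and from 230 CPM per kb for Uqcrq to 943 CPM per kb for Uqcrh in the uninjured hearts. The low place of Uqcrq rests on an annotated principal transcript of 1521 nt. Before division by length, its CPM lay above those of Uqcr10 and Uqcr11 in every library.

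Cytochrome c itself, from Cycs, had 179 and 160 CPM in the infarcted libraries, against 286 and 370 CPM in the uninjured ones, and was called lower at -0.96 ± 0.22 (adjusted p = 0.00497). The infarcted values lay below both uninjured ones. Of the 50-base stretches of its principal transcript, 28.5% also occur in transcripts of other genes, so reads may have been shared with copies. Cyct, the testis form, was at most 0.1 CPM in every library and could not be tested.

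**Figure D3:**
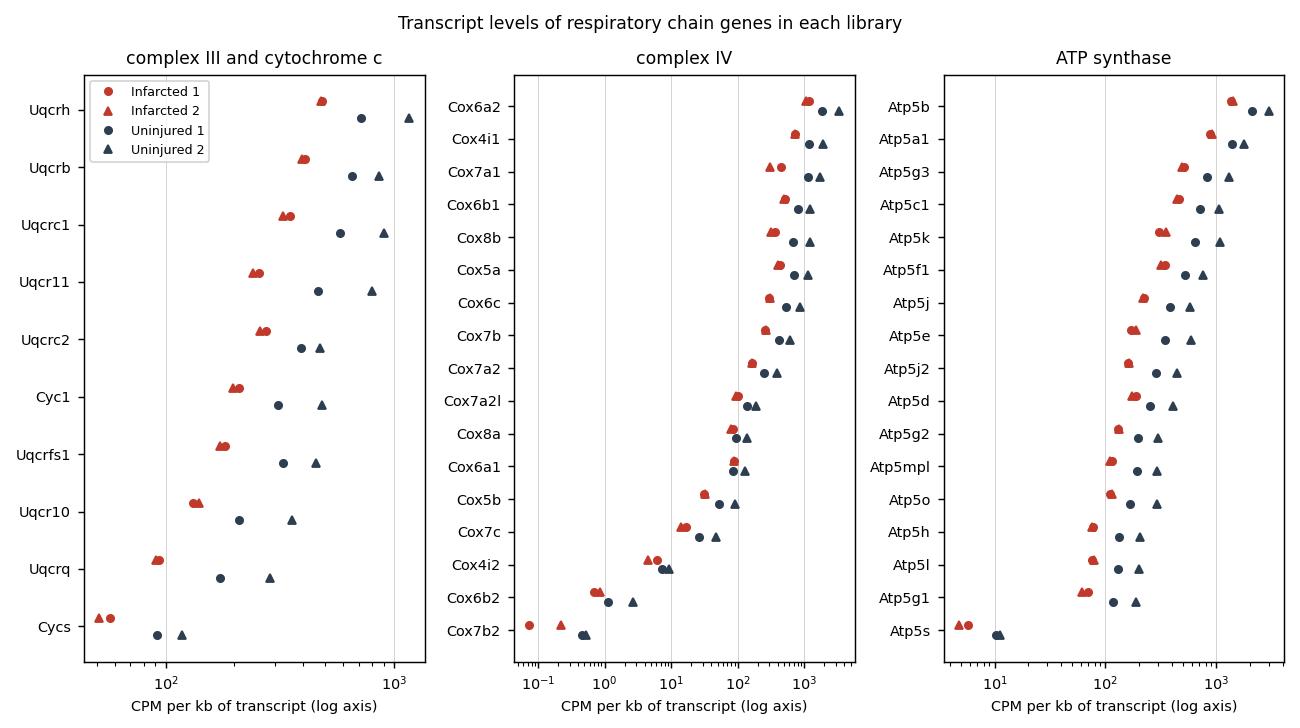
Level of each tested gene in each library as CPM per kb of its principal transcript (x axis, log scale), ordered by the uninjured mean, with the infarcted libraries drawn above the uninjured ones in each row. The infarcted points lie left of the uninjured points for every gene but Cox6a1; the value of Atp5g1 rests on an annotated principal transcript of 4715 nt.

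Complex IV held both the strongest and the weakest differences. Cox7a1, the muscle form of a small membrane subunit, had 174 and 119 CPM in the infarcted libraries, against 452 and 677 CPM in the uninjured ones. It fell 3.86-fold (log2 fold change -1.95 ± 0.27, adjusted p = 0.000254), and was at -1.64 without uninjured replicate 2. Cox8b, the muscle form of the smallest subunit, had 130 and 116 CPM in the infarcted libraries, against 245 and 436 CPM in the uninjured ones, and fell 2.77-fold (-1.47 ± 0.27, adjusted p = 0.00174). Neither gene overlapped between groups. Cox6c, an accessory subunit, had 216 and 226 CPM in the infarcted libraries, against 388 and 637 CPM in the uninjured ones (-1.21 ± 0.25, adjusted p = 0.0031). Cox5b, which binds zinc on the matrix side, had 26.7 and 28.4 CPM in the infarcted libraries, against 45.7 and 77.7 CPM in the uninjured ones (-1.16 ± 0.24, adjusted p = 0.00356), and shares 25.9% of its 50-base stretches with other genes.

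The muscle form Cox6a2, a regulatory subunit, was the most abundant per length of the tested nuclear complex IV genes in both groups. It had 1111 CPM per kb in the infarcted hearts and 2588 CPM per kb in the uninjured hearts. The mitochondrially encoded complex IV transcripts were far more abundant, with mt-Co1 at 85627 CPM per kb in the infarcted hearts and 104921 in the uninjured ones. Cox6a2 had 797.5 and 714 CPM in the infarcted libraries, against 1250.2 and 2269 CPM in the uninjured ones (-1.22 ± 0.29, adjusted p = 0.00659). Cox4i1, the main form of the subunit through which ATP slows the enzyme, had 562 and 559 CPM in the infarcted libraries, against 910 and 1473 CPM in the uninjured ones (-1.09 ± 0.26, adjusted p = 0.00675). The other called genes of the complex were Cox7c (-1.25), Cox5a (-1.12), Cox6b1 (-0.98), Cox7b (-0.97), Cox7a2 (-0.97) and Cox7a2l (-0.78). Cox7c shares 53.0% of its 50-base stretches with other genes and its count is uncertain.

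5 complex IV genes were not called. Cox6a1, the widely expressed partner of Cox6a2, had 49.8 and 51.0 CPM in the infarcted libraries, against 49.0 and 73.8 CPM in the uninjured ones, so the groups overlap (-0.28 ± 0.21, adjusted p = 0.327), and its sign turned to positive without uninjured replicate 2, where it was 0.03. Cox8a, the widely expressed partner of Cox8b, had 46.2 and 43.0 CPM in the infarcted libraries, against 51.8 and 76.2 CPM in the uninjured ones (-0.52 ± 0.21, adjusted p = 0.0723). Cox4i2, a form best known from lung and from cells that sense oxygen, had 4.46 and 3.27 CPM in the infarcted libraries, against 5.39 and 6.93 CPM in the uninjured ones (-0.67 ± 0.27, adjusted p = 0.0682). The groups did not overlap for Cox8a or Cox4i2, but the differences did not pass the test. Cox6b2, a form typical of testis, had 20 and 21 counts in the infarcted libraries, against 32 and 100 counts in the uninjured ones (adjusted p = 0.0525). Cox7b2, another testis form, had 2 and 5 counts in the infarcted libraries, against 12 and 18 counts in the uninjured ones (adjusted p = 0.0627). At such counts, differences of this size were at the edge of what the depth could show.

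Within each library, the balance between the muscle form and the widely expressed form was compared for the 3 pairs with a muscle member, since such a ratio does not depend on library size. The Cox7a1 count was 1.63 and 1.11 times the Cox7a2 count in the infarcted libraries, against 2.76 and 2.66 times in the uninjured ones. The Cox6a2 count was 16.0 and 14.0 times that of Cox6a1 in the infarcted libraries, against 25.5 and 30.7 times in the uninjured ones. The Cox8b count was 2.82 and 2.69 times that of Cox8a in the infarcted libraries, against 4.73 and 5.72 times in the uninjured ones. In all 3 pairs both infarcted ratios lay below both uninjured ratios. The ratio was 2.02-fold lower for Cox7a1 over Cox7a2 (difference of mean log2 ratios -1.01), 1.87-fold lower for Cox6a2 over Cox6a1 (-0.90) and 1.89-fold lower for Cox8b over Cox8a (-0.92). The exact two-sided permutation test gave p = 0.333 for each, which is the smallest value that 2 against 2 libraries allow.

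**Figure D4:**
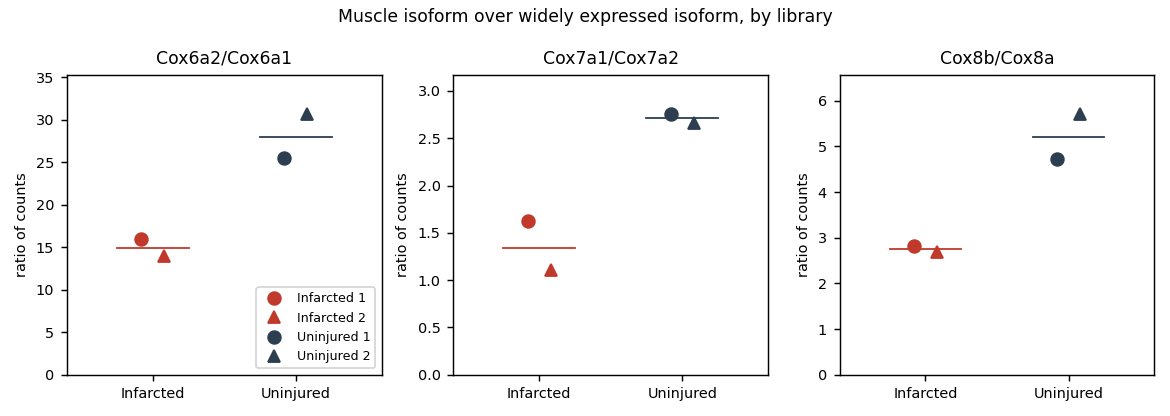
Ratio of the muscle isoform's counts to those of the widely expressed isoform (y axis, linear from 0) in each of the 4 libraries; lines are geometric means of each group. In each panel both infarcted libraries lie below both uninjured libraries, at 1.63 and 1.11 against 2.76 and 2.66 for Cox7a1 over Cox7a2.

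In each of the 3 pairs, the 2 libraries of a group differed by less than the groups did. Without uninjured replicate 2 the differences were -0.77 for Cox6a2 over Cox6a1, -1.04 for Cox7a1 over Cox7a2 and -0.78 for Cox8b over Cox8a. After the trend with principal transcript length was taken out of each library they were -0.95, -0.87 and -0.81 in the same order, with no overlap between groups. Per kilobase, the muscle form remained the larger part of each pair in every library: Cox6a2 made up 93.1% and 92.2% in the infarcted libraries, against 95.5% and 96.3% in the uninjured ones. Cox7a1 made up 73.2% and 65.0% in the infarcted libraries, against 82.2% and 81.7% in the uninjured ones. Cox8b made up 81.2% and 80.5% in the infarcted libraries, against 87.8% and 89.7% in the uninjured ones. The widely expressed forms are also made by non-muscle cells. Most fibroblast and macrophage markers were called higher in the infarcted libraries as given above, but 0 of 5 endothelial markers were called, at a median of -0.08. The part of non-muscle cells in the ratios was not tested.

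The other pairs with a rare second form showed no such separation. Cox4i2 counts were 0.00794 and 0.00585 times those of Cox4i1 in the infarcted libraries, against 0.00592 and 0.00470 times in the uninjured ones, a log2 difference of 0.37. The log2 difference was -0.24 for Cox6b2 over Cox6b1 and -0.83 for Cox7b2 over Cox7b. The groups overlapped in each of these 3 pairs, with p = 0.667 in the exact permutation test.

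The stretches upstream of the muscle and the widely expressed forms are shown for 5 of the 6 genes of the pairs whose balance did not overlap between groups, and the stretch of Cox6a2 is not shown. They are the 250 bases before the annotated start from RefSeq on GRCm38.p6, which is not the build of the deposited coordinates, for Cox7a1 (chr7:30183921-30184170, plus strand), Cox7a2 (chr9:79759854-79760103, minus strand), Cox8b (chr7:140900447-140900696, minus strand), Cox8a (chr19:7217617-7217866, minus strand) and Cox6a1 (chr5:115348959-115349208, minus strand). Capitals mark matches to the motifs named after them, on either strand.
Cox7a1: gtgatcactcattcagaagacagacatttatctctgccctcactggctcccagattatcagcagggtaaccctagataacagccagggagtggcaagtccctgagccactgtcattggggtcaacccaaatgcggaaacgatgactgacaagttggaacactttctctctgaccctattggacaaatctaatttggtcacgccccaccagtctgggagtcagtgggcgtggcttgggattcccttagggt
Cox7a2: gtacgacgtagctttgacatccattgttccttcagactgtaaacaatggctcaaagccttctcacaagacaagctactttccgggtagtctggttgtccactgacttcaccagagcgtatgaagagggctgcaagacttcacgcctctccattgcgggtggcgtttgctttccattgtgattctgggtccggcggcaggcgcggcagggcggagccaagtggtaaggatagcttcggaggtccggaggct
Cox8b: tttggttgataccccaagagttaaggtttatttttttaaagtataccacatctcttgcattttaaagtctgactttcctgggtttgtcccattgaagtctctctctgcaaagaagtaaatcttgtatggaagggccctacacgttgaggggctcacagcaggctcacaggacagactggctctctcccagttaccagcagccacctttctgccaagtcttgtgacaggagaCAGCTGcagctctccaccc
Cox8a: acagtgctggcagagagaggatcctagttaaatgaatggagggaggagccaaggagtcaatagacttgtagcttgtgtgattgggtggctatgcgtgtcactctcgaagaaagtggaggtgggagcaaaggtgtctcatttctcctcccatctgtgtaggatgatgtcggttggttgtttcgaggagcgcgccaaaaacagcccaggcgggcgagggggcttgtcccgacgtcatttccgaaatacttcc
Cox6a1: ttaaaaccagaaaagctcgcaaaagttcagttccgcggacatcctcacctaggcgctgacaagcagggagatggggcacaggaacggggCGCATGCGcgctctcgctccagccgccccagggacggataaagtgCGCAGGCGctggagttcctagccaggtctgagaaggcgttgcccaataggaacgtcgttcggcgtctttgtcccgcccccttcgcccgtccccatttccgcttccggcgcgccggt
The pair of bases CG occurred 4 times in the stretch of Cox7a1 and 1 time in that of Cox8b, against 14 times in Cox7a2, 11 times in Cox8a and 26 times in Cox6a1, with a median of 6 over 32851 such stretches. These counts cover 2 of the 3 muscle forms.

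Motifs of 5 factors known to act on respiratory or muscle genes were searched in the same window of the 34 genes that could be matched. The core of the NRF1 motif, CGCANGCG, was found in 8 of them (23.5%), namely Atp5c1, Atp5g2, Atp5h, Atp5j, Atp5k, Atp5l, Cycs and Cox6a1, which holds it at 2 places, and in 7.65% of 27025 genes. The ETS motif CCGGAAGT was found in 3 (8.82%, against 3.23% of all genes), the ERR motif TNAAGGTCA in 1 (2.94%, against 1.3%), the MEF2 consensus in 0 (0%, against 3.42%) and the E-box CAGCTG in 2 (5.88%, against 14.7%), 1 of which is Cox8b. The printed matches do not overlap each other. No printed stretch other than those of Cox6a1 and Cox8b holds any of the 5 motifs in these letters.

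All 17 tested genes under ATP synthase symbols fell. Atp5k, subunit e of the membrane part, had 112 and 129 CPM in the infarcted libraries, against 241 and 403 CPM in the uninjured ones (-1.42 ± 0.25, adjusted p = 0.0014). Atp5e, the epsilon subunit of the central stalk, had 72.3 and 79.3 CPM in the infarcted libraries, against 144 and 247 CPM in the uninjured ones (-1.37 ± 0.25, adjusted p = 0.00175). Both groups were apart for each gene. Atp5h, subunit d of the peripheral stalk, and Atp5l, subunit g, were at -1.15 ± 0.22 and -1.11 ± 0.22, and 47.9% and 84.8% of their 50-base stretches occur in other genes, which leaves their counts uncertain.

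Before any correction for transcript length, the catalytic subunits and Atp5d had the smallest steps. Atp5b, the beta subunit that holds the catalytic sites, had 2612 and 2689 CPM in the infarcted libraries, against 4001 and 5719 CPM in the uninjured ones (-0.87 ± 0.27, adjusted p = 0.0249). Atp5a1, the alpha subunit beside it, had 2158 and 2259 CPM in the infarcted libraries, against 3407 and 4418 CPM in the uninjured ones (-0.83 ± 0.26, adjusted p = 0.0261). With the trend on principal transcript length removed, Atp5a1 was at -0.93 and Atp5b at -0.89, and Atp5g2 (-0.56) had the smallest step of the 17. Both were separate between groups and, per length, ranked 1 and 3 among the tested genes in the infarcted hearts, at 1383 and 894 CPM per kb. The other called genes were Atp5j2 (-1.17), Atp5mpl (-1.11), Atp5j (-1.10), Atp5o (-1.03), Atp5s (-1.03), Atp5f1 (-0.98), Atp5c1 (-0.96) and Atp5d (-0.87), which include the gamma and delta subunits of the central stalk (Atp5c1 and Atp5d) and stalk subunits (Atp5f1, Atp5j and Atp5o).

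The membrane ring of identical c subunits is encoded by 3 genes whose mature proteins are the same. Atp5g1 fell at -1.22 ± 0.26, Atp5g3 at -1.09 ± 0.25 and Atp5g2 at -0.93 ± 0.23. Of the counts of the 3 genes together, Atp5g1 gave 41.7% and 39.0% in the infarcted libraries, against 42.7% and 43.4% in the uninjured ones. Atp5g3 gave 46.4% and 48.1% in the infarcted libraries, against 46.3% and 45.9% in the uninjured ones, and Atp5g2 gave 11.9% and 13.0% in the infarcted libraries, against 11.1% and 10.6% in the uninjured ones. The mix of the 3 sources differed by at most a few points. Atp5g2 shares 87.4% of its 50-base stretches with other genes.

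2 more ATP synthase genes have symbols outside the rule. Usmg5, a small membrane subunit, had 96.4 and 91.7 CPM in the infarcted libraries, against 175 and 257 CPM in the uninjured ones, and fell at -1.20 ± 0.22 (adjusted p = 0.00156). Atpif1, the inhibitor that stops ATP synthase from running backwards, had 71.4 and 67.2 CPM in the infarcted libraries, against 75.6 and 97.2 CPM in the uninjured ones, and was not called (-0.32 ± 0.20, adjusted p = 0.23).

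Genes that build the complexes were lower as well. In complex III assembly, 5 of 6 genes were called lower, with a median of -0.86, among them Uqcc2 (-1.03), Uqcc1 (-0.87), Uqcc3 (-0.87) and Bcs1l (-0.85), the ATPase that inserts the Rieske protein. In complex IV assembly and copper delivery, 14 of 20 were called lower, with a median of -0.77, among them Smim20 (-1.37), which helps make the first core subunit, Tmem177 (-1.21), Cmc2 (-1.10) and the copper chaperone Cox17 (-1.08). In ATP synthase assembly, 5 of 5 were called lower, with a median of -0.92: Fmc1 was at -1.49, Tmem70 at -0.97, Atpaf1 at -0.92 and Tmem242 at -0.81. 3 of 5 tested partner genes were called lower, namely Ndufa4, a late addition to complex IV, at -1.15, and the supercomplex factors Higd1a at -1.05 and Higd2a at -0.84. Hccs, which attaches haem to cytochrome c, was at -0.55 and was not called. Of all genes tested, 14.6% were called lower. With library totals (5.65% of all genes) the counts called lower were 2 of 6 for complex III assembly, 7 of 20 for complex IV assembly and 3 of 5 for ATP synthase assembly. Without uninjured replicate 2, edgeR called 0 in each of the 3 lists (0.056% of all genes), and DESeq2 called 1, 2 and 3 of them in the same order (4.52% of all genes).

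The mitochondrially encoded subunits of the same complexes behaved less evenly. Of 6 such transcripts, 2 were called lower (14.6% of all genes), with a median of -0.37. mt-Co3 had 31772 and 15919 CPM in the infarcted libraries, against 53280 and 59939 CPM in the uninjured ones (-1.25 ± 0.36, adjusted p = 0.0176), and mt-Co2 was at -1.14 ± 0.37 (adjusted p = 0.0294). mt-Cytb at -0.45 and mt-Co1 at -0.29 were not called. Neither were the ATP synthase subunits mt-Atp6 at -0.15 and mt-Atp8 at 0.02, whose groups overlap. With library totals as the scale 1 of the 6 was called lower and the median was -0.02, and with the principal length trend removed or without uninjured replicate 2 (edgeR and DESeq2) 0 were called. All 3 listed factors that keep or translate these mitochondrial mRNAs, Taco1 (-0.79), Slirp (-0.80) and Lrpprc (-0.68), were called lower, but 0 of the 3 were called with library totals or, by edgeR or DESeq2, without uninjured replicate 2.

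For comparison, 4 of 4 genes of complex II were called lower with a median of -0.98, from Sdhb at -1.20 and Sdhc at -1.14 to Sdha at -0.82 and Sdhd at -0.81, and 7 of 7 core nuclear genes of complex I with a median of -1.14, among them Ndufs7 (-1.32), Ndufs3 (-1.26), Ndufs8 (-1.24) and Ndufv2 (-1.14). With library totals 2 of the 4 complex II genes and 7 of the 7 complex I genes were called, and without uninjured replicate 2 edgeR called 0 of either while DESeq2 called 3 and 7. Over all genes, 14.6% were called lower in the main fit and 5.65% with library totals. The medians of the complexes lie within 1 SE of a single gene of each other. Of 11 regulators of respiratory genes, 3 were called lower and 1 higher, beside 14.6% and 18.3% of all genes tested. Esrra, a nuclear receptor that drives many respiratory genes, was at -0.87 and its muscle coregulator Perm1 at -0.83. Tfam, which packages and transcribes mitochondrial DNA, was at -0.62. The gene called higher was Hif1a, the oxygen-regulated factor, at 0.92. The median of the 11 was -0.35, and -0.01 with library totals as the scale. These calls depended on the scale. With library totals 0 were called lower (5.65% of all genes) and 2 higher (Hif1a and Nrf1). With the principal length trend removed 7 were called lower (22.3% of all genes) and 1 higher. The share of all genes called higher was not worked out for these settings. Without uninjured replicate 2, edgeR and DESeq2 called 0 of the 11 lower.

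Every tested gene but Cox6a1 kept its direction when the scale was changed, while the size of the step moved. With library totals alone, which moved the median of all genes to 0.36, 26 of the 44 genes were called lower (5.65% of all genes) at a median of -0.74. These genes are short, and short transcripts as a class were lower in the infarcted libraries. Of the 44, 29 have a principal transcript of at most 1000 nt, with a median of -1.11, beside -0.56 over all 753 tested genes of that length. The 15 longer ones had a median of -0.96, beside 0.04 over 12980 longer genes. The 2 uninjured libraries differed along the same axis: replicate 2 over replicate 1 gave a median of 0.66 for the short genes of the 44 and 0.46 for all short genes, and 0.52 for the longer genes of the 44 and 0.03 for all longer genes. With the trend on principal length removed from each library, a setting added after the data were seen, 39 genes were called lower (22.3% of all genes) at a median of -0.77, and the median of all genes was -0.16. With the longest transcript in place of the principal one, 37 were called (22.4% of all genes). With the principal trend removed, Cox6a1 stood at 0.15, Cox8a at -0.08 and Cox7a1 at -1.40.

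**Figure D5:**
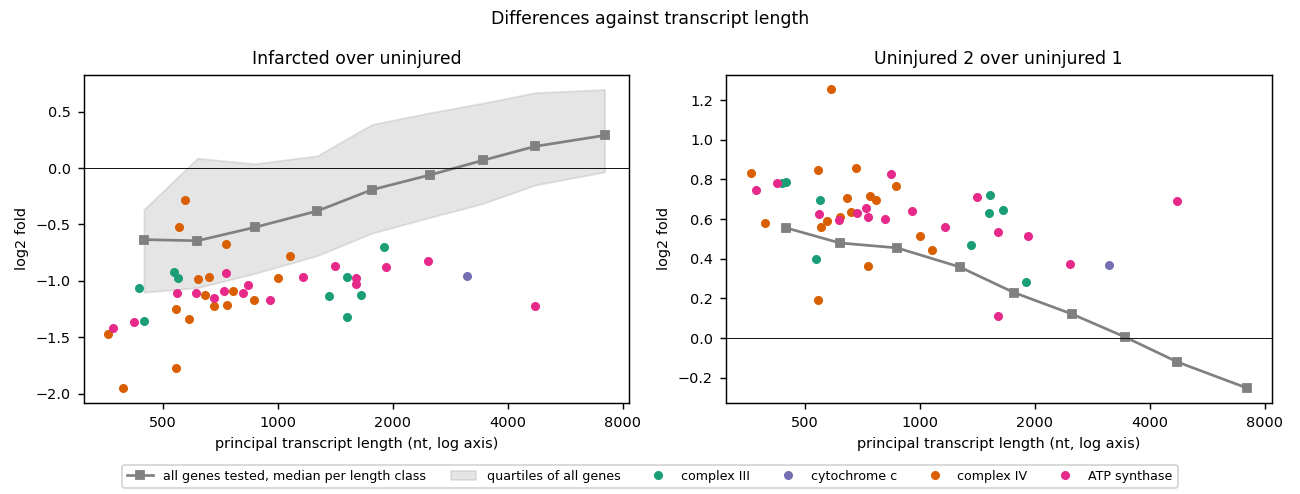
Left, log2 fold change, infarcted over uninjured, against principal transcript length (log axis); right, log2 fold of uninjured replicate 2 over uninjured replicate 1 against the same length. Coloured points are the 44 tested genes and grey squares the median of all tested genes in each length class; genes of 250 to 500 nt had medians of -0.63 at left and 0.56 at right, and genes of 6000 to 10000 nt had 0.29 and -0.25.

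Splicing of the same genes showed no called change. The deposited splicing values list 277 events in these genes, of which 53 (14 exons and 39 splice sites in 20 genes) were tested. Tested events had at least 10 reads in every library and at least 5 reads for each form over all libraries. For events with only a pair of sites, the mirrored entry was left out. None of the 53 was called by edgeR's test of the form-by-group interaction (smallest adjusted p = 0.692), and 4 had an unadjusted p below 0.05. limma on the logit also called 0, with 3 at an unadjusted p below 0.05. Over all exons tested, edgeR called 0% of 5490, with 7.05% at an unadjusted p below 0.05, and over all splice sites 0.0341% of 2936, with 5.65%. The mean inclusion differed by under 5 points in 48 of the 53 events and by over 10 points in 4. These 4 include a pair of Uqcrh splice sites (-10.6 and 10.75 points) whose reads nearly mirror each other.

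The event with a large difference among the 4 with the smallest p was an exon of 111 nt in Atp5s (chr12:70838938-70839048 on mm9), included in 59.3% and 43.5% of reads in the infarcted libraries, against 71.0% and 80.5% in the uninjured ones, on 43 and 33 reads in the infarcted libraries and 53 and 74 reads in the uninjured ones. The groups were apart, at an unadjusted p of 0.0492 and an adjusted p of 0.692 by edgeR. The other 3 involve small shares. An exon of Cox6b1 (chr7:31409519-31409632 on mm9) was included in 99.6% of reads in both infarcted libraries, against 100% and 99.9% in the uninjured ones. A splice site of Cox7a2 was used in 99.2% and 99.0% of reads in the infarcted libraries, against 97.7% and 98.1% in the uninjured ones. An exon of Atp5j2 was included in 0.17% and 0.38% of reads in the infarcted libraries, against 0.07% and 0.06% in the uninjured ones.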

How the data were processed

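Per the labels, polyadenylated RNA was sequenced on an Illumina GAII as single-end reads of 50 bp. The authors deposited raw counts per Ensembl gene and, for splicing events, the percent inclusion with inclusion and exclusion reads. mm9 is named in the submitters' processing notes; aligner, counter and strand setting are not stated there, so antisense and near-identical genes are uncertain. Symbols came from GENCODE M21, which matched 20450 of 21552 genes.

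Counts were tested in edgeR 4.0.16 (R 4.3.3) by the quasi-likelihood F-test with TMM scaling, the filterByExpr filter and robust fitting, adjusted over 13905 genes. SE is the absolute log2 fold change over the square root of F. The common biological coefficient of variation was 19.3%. Nothing says that the samples of a group are separate litters or days, so p-values measure the spread between these 4 samples. Isoform ratios used counts plus 0.5. Transcript lengths are those of the longest APPRIS principal transcript, and the length trend was a loess with span 0.3. Splicing reads were rounded, and events needed at least 10 reads in each library and 5 reads for each form. The scripts were tested on simulated data. The members, gene lists and markers were chosen with earlier results of these data known. Named genes were those of the isoform pairs and the c-ring, Cycs, Cyc1, the 4 smallest and 2 largest p in each complex, every gene not called, and up to 4 genes with the smallest p in each other list; other genes are named after their values were seen. Other settings were other normalizations, filters, DESeq2 1.42.0, limma-voom (limma 3.58.1), a replicate block, length trends and leaving out each library.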

Additional observations from a re-analysis of the deposited data

How the results depend on the processing

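The fold changes of the genes and their counts of calls were recomputed under 14 alternatives. The count called lower was 40 with RLE factors, 41 without a filter, 39 without mitochondrially encoded genes and 39 with limma-voom. The share of all genes called lower was not worked out for these settings, so their counts stand without it. The count was 39 with DESeq2 (14.4% of all genes) and 37 with the trend on longest transcript length removed (22.4%). Each of these settings had a median between -1.12 and -0.81. With library totals the median was -0.744. Leaving out 1 library at a time gave counts from 0 to 41 and medians from -1.39 to -0.733; the count was 37 without infarcted replicate 1 (11.5%), 34 without infarcted replicate 2 (8.83%), 41 without uninjured replicate 1 (12.7%) and 0 without uninjured replicate 2, where DESeq2 gave a median of -0.751 and the lone uninjured library is assumed to vary like the infarcted ones. Cox6a1 turned positive at 0.0638 with library totals, 0.184 and 0.151 with the longest and principal length trends removed, and 0.0339 (edgeR) and 0.0151 (DESeq2) without uninjured replicate 2, and ran from -0.557 to 0.0339 when 1 library was left out; the cause was not tested. The Cox6b2 over Cox6b1 difference ran from -0.551 to 0.0794, the highest without uninjured replicate 2. Left out 1 library at a time, the differences ran from -1.04 to -0.77 for Cox6a2 over Cox6a1, from -1.29 to -0.737 for Cox7a1 over Cox7a2 and from -1.05 to -0.778 for Cox8b over Cox8a. With the replicate block, 43 genes were called lower (16.8%) at a median of -1.05, and 0 splicing events. Deviations of same-numbered samples from their group means had a correlation of 0.108. With 2 samples a group the 2 pairs mirror each other, so this value cannot show whether they share a day or litter. The labels give them only a shared number. No splicing event of these genes was called under any alternative run. With 2 mice a group and 2 residual degrees of freedom, low counts, as for Cox6b2 and Cox7b2, limit what could be shown.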

Other observations

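Sharing of 50-base stretches with annotated transcripts of other genes was counted for each gene. Of the 44 tested genes, 18 share no 50-base stretch of their principal transcript with another gene, and their median log2 fold change was -1.10. The 10 genes that share 25% or more had a median of -1.07. Among the 18 are Cox7a1, Cox8b, Cox7a2 and Cox8a, the members of 2 of the isoform pairs described above. The count covers principal transcripts against annotated transcripts only. Copies elsewhere in the genome and reads with mismatches were not tested.

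The order of levels per length shifted most for Cox7a1, and by less for other genes, muscle forms or not. Cox7a1 ranked 11th of 44 in the infarcted hearts and 5th in the uninjured hearts, and Cox8b ranked 12th in the infarcted hearts and 8th in the uninjured hearts. Genes that are not muscle forms shifted as far as Cox8b. In the infarcted and the uninjured hearts, Uqcrc2 ranked 17 and 21, Atp5h 36 and 32, and Cox6a1 33 and 37. Atp5b ranked 1st in the infarcted hearts and 2nd in the uninjured hearts, changing places with Cox6a2. These ranks describe means of 2 mice and were not tested.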
